A study of Mus musculus with 2 samples.

Results

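Non-classical monocytes of the infarcted neonatal mouse heart were taken from single-cell RNA sequencing (scRNA-seq) of CD45+ cells, in which 552 of 6149 kept cells met a fixed rule on their own transcripts. Kept cells were barcodes with at least 1000 genes and at most 10% mitochondrial unique molecular identifiers (UMIs, each marking 1 RNA molecule), out of 10998 barcodes in all. A non-classical monocyte held at least 4 UMIs of Ace, Treml4 and Eno3 together, at least 1 UMI of Csf1r and fewer than 5 UMIs of Ly6c2. It also held fewer than 10 UMIs of C1qa, C1qb and C1qc per 10000, fewer than 3 of Cd209a, of Siglech, of Xcr1 with Clec9a and of Cd79a, and fewer than 2 of Cd3e. The rule gave 247 cells in the wild-type (WT) library and 305 in the Lyve1 knockout (KO) library.

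Both libraries came from hearts given myocardial infarction (MI) at postnatal day 2 and collected 7 days later, at an age of 9 days. The WT library pooled 5 hearts and the Lyve1 KO library pooled 5 hearts that lack Lyve1 in every cell, so the deletion was not limited to macrophages. Ventricles were digested, red blood cells were lysed, and live CD45+ cells negative for the dead-cell dye 7-AAD were sorted and sequenced with 10x 5′ chemistry. With 1 library per genotype there was no replicate and no test between genotypes, and the 95% intervals below hold counting error alone, since the spread between hearts was not measured. The cells were not separated into blood and tissue, and fewer cells of a kind in the suspension and fewer in the heart cannot be told apart.

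Non-classical, or Ly6C-low, monocytes patrol the inner face of small vessels and scavenge debris. In mice they arise largely from classical, Ly6C-high monocytes, a conversion that depends on the nuclear receptor NR4A1 and on C/EBPβ. Classical monocytes carry CCR2 and enter inflamed tissue, including the infarcted heart, whereas the non-classical cells carry more CX3CR1 and the integrin LFA-1. Ace encodes angiotensin-converting enzyme, Treml4 a receptor of the TREM family and Eno3 an enolase better known from muscle.

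The label was described with the markers that the rule did not use. Cells and gene lists were chosen with earlier results of these data known, so these values are no independent check. Ear2, an eosinophil-type ribonuclease, stood at 583 CPM (UMIs of the gene per 1000000 summed UMIs of the same cells, 95% exact Poisson interval 557–609) in WT and 624 (602–647) in KO non-classical monocytes, and had a UMI in 80.6% and 83.6% of them. Adgre4, an adhesion G protein-coupled receptor, stood at 860 CPM (829–892) in WT and 923 (897–951) in KO cells, with a UMI in 93.5% and 96.1%. Cd300e, an activating receptor of monocytes, stood at 126 CPM (114–138) and 101 (92.5–110), with a UMI in 42.9% and 37.4%. Lymphocytes of the same libraries, which should lack these genes, had a UMI of Adgre4 in 1.06% (WT) and 0.739% (KO) of cells, of Ear2 in 0% and 0.369%, and of Cd300e in 0% and 0.246%, at median depths of 13375 and 14103 UMIs per cell against 13522 and 16237 in the non-classical monocytes. The 3 markers were present far above this level. The lymphocytes had at least 3 UMIs of Cd79a or at least 2 of Cd3e, and no UMI of Csf1r, Ace, Treml4 or Eno3. Leaving out barcodes with those transcripts can lower the level of free RNA that lymphocytes show. Lymphocytes do not show whether the markers set these cells apart from other myeloid cells. Of the classical monocytes defined below, 46.8% (WT) and 43.3% (KO) had a UMI of Ear2 and 57.6% and 53.3% of Adgre4. For Cd300e this was 0% in both libraries. Adgre4 had a UMI in 16.1% and 21.7% of the C1q-high macrophages defined below.

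The promoter regions of these 3 markers are shown because the rule did not use their transcripts. Each sequence gives the 250 bases before the RefSeq start site, 5′ to 3′ on the strand of the gene (build GRCm38.p6), and capitals mark a match of the C/EBP-type motif TTGCNNAA on either strand.
Ear2 (chr14:44102404-44102653, plus strand): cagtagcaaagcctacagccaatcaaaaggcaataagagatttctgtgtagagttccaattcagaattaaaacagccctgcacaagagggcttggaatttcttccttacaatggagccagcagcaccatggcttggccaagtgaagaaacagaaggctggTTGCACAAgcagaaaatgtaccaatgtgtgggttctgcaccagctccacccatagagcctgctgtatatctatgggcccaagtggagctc
Adgre4 (chr17:55749734-55749983, plus strand): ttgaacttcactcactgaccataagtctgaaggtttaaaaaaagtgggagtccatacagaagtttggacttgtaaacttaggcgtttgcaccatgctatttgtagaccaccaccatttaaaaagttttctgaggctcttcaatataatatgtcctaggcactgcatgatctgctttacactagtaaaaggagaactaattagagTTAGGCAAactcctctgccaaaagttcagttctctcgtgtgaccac
Cd300e (chr11:115062040-115062289, minus strand): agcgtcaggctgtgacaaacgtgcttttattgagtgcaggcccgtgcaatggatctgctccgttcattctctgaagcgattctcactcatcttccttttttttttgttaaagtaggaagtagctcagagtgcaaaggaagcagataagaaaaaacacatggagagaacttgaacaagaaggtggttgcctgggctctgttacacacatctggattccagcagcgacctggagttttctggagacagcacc

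The match begins at base −90 from the start site in Ear2 and at base −46 in Adgre4, and Cd300e has none in this window. Of the 12 genes with the largest ratio of non-classical over classical monocytes (named below), 9 had an entry in the promoter table, with 11 promoters between them, each of 300 bases (250 before and 50 after the start). The C/EBP-type motif was found in 5 of these 11 promoters, those of Ear2, Adgre4, Lair1 (base −232), Lilra5 (base −172) and 1 of the 3 of Pparg (bases −215 and −16), and in 10.8% of all 32851 promoters. The NBRE motif of NR4A receptors (AAAGGTCA) was found in 0 of the 11 and in 1.51% of all promoters, and the KLF-type motif CCACACCC in 0 of the 11 and in 3.56% of all. A match is a description of letters and not a site of binding, and the 12 genes were chosen by their values.

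The values that chose the cells are given as a description. The sum of Ace, Treml4 and Eno3 UMIs had a median of 21 (range 4 to 75) in WT and 27 (4 to 112) in KO members, and 181 of 247 and 233 of 305 had a UMI of each of the 3 genes. Ace stood at 821 CPM (791–852) and 888 (862–914), Treml4 at 494 (471–518) and 511 (492–532), and Eno3 at 348 (328–368) and 432 (414–451). Ly6c2 had no UMI in 195 WT (78.9%) and 232 KO (76.1%) members. Csf1r, the receptor for macrophage colony-stimulating factor, stood at 1115 CPM (1080–1152) and 1206 (1176–1237). Just inside the limit, 31 WT and 29 KO cells had a sum of 4 or 5, and just outside it 68 and 43 cells had 2 or 3. Cells just outside held Adgre4 at 192 CPM in WT and 171 in KO, against 420 and 678 in the cells just inside. Ear2 did not follow the limit, at 225 and 596 CPM just outside against 197 and 79.2 just inside, so the rule leaves out some cells that hold Ear2. Cells just inside and just outside were shallow, with medians of 8256 and 8078 UMIs in WT and 7499 and 8429 in KO.

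**Figure D1:**
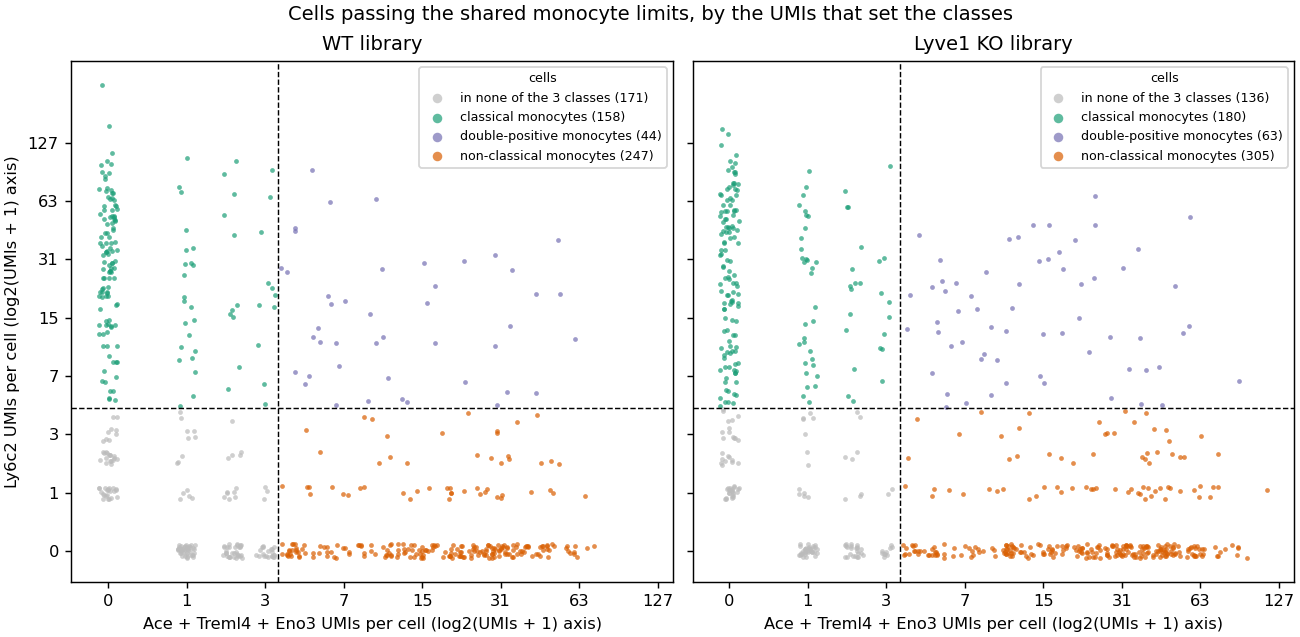
Each point is a cell that passed the shared monocyte limits and had at least 1 UMI of the genes on the axes, with the summed Ace, Treml4 and Eno3 UMIs across and Ly6c2 UMIs up, both on a log2(UMIs + 1) axis with small random offsets, WT at left and Lyve1 KO at right. Dashed lines mark the limits of 4 and 5 UMIs, and most of the 247 WT and 305 KO non-classical monocytes lie at 0 Ly6c2 UMIs.

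Comparison classes were set on the same cells. Classical monocytes met the same limits with at least 5 Ly6c2 UMIs and a marker sum under 4 (158 WT and 180 KO cells), double-positive monocytes had at least 5 Ly6c2 UMIs and a marker sum of at least 4 (44 and 63 cells), and C1q-high macrophages had at least 10 C1q UMIs per 10000 and a marker sum under 4 (1339 and 580 cells). The limit of 5 Ly6c2 UMIs is reached more easily by deeply sequenced cells, and classical monocytes had a median of 23852 (WT) and 25495 (KO) UMIs per cell.

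Non-classical monocytes made up 7.31% of kept WT cells (247 of 3380, 95% Clopper-Pearson interval 6.45–8.24) and 11.0% of kept KO cells (305 of 2769, 9.87–12.2). The difference of 3.71 percentage points (Newcombe 95% interval 2.26–5.18) is beyond counting error, and its size against the spread between hearts cannot be given. The share among monocytes (non-classical and classical) was 61.0% of 405 in WT and 62.9% of 485 in KO, a difference of 1.90 points (−4.48 to 8.29). With C1q-high macrophages taken out of the kept cells, the values were 12.1% in WT and 13.9% in KO, which differ by 1.83 points (−0.202 to 3.86). C1q-high macrophages made up 39.6% of kept WT and 20.9% of kept KO cells, and lymphocytes 16.7% and 29.3%, so the share of kept cells moved together with the other classes of the sort. Classical monocytes made up 4.67% and 6.50%, a difference of 1.83 points (0.676–3.01). With cells thinned to 5000 UMIs the classical difference was 0.611 points (−0.389 to 1.63), and in female cells 0.880 points (−1.63 to 3.40).

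The hearts of a pool were not separated, but transcripts linked to sex divide each pool. Of the WT members 77 were female by Xist and 130 male by Y-linked transcripts, and of the KO members 126 and 128. Among female cells the share of kept cells was 8.36% in WT and 13.9% in KO (difference 5.52 points, 2.64–8.41), and among male cells 6.93% and 9.34% (2.41 points, 0.517–4.38). The share among monocytes differed by 9.69 points (−0.769 to 20) in female cells and −3.98 points (−13.2 to 5.33) in male cells. Among kept cells without C1q-high macrophages, the share differed by 5.22 points (1.13–9.24) in female cells and by −0.704 points (−3.55 to 2.13) in male cells. That last share also depended on the limits. The difference was 11.2 points (5.07–17.3) where cells with signs of doublets were left out of every class, which also removes nearly all lymphocytes. With only such monocytes left out it was 1.28 points (−0.537 to 3.09). The interval lay above 0 with a marker sum of at least 6 UMIs (0.0555–3.93). It also did with UMIs of at least 2 of the 3 marker genes (0.207–4.14). The same held with cells of 500 genes or more and up to 30% mitochondrial UMIs (0.333–3.64). The interval included 0 with a marker sum of at least 3 UMIs, with cells thinned to 1 depth and with Ly6c2 under 3 UMIs. It also did with stricter gene and mitochondrial limits, with both other C1q limits and without members of over 3 times the median UMIs.

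Against classical monocytes of the same library, most identity genes were higher in the non-classical cells and most genes of classical monocytes were lower, while the other lists held calls in both directions or few calls. A gene was called where its log2 ratio of CPM + 10 was at least 1 in size with the same sign in both libraries and it had at least 50 UMIs over both classes in each library. Of 8434 genes tested, without the 14 genes of the rule, 290 were called higher (3.44%) and 133 lower (1.58%). The CPM added understates the ratio of low genes, and since both classes were cut on genes of this programme, the counts describe the classes and test nothing.

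Of 24 identity genes that the rule did not use, all 24 were tested, 19 were called higher and 0 lower, with a median log2 ratio of 2.62 in WT and 2.56 in KO against 0.01 and 0.04 over all genes tested. Ear2 stood at 54.4 CPM in WT and 53.6 in KO classical monocytes, which puts the non-classical cells 10.7-fold and 11.7-fold higher. Adgre4 stood at 85.4 and 81.9 CPM in classical cells, 10.1-fold and 11.3-fold lower than in the non-classical ones. Cd300e had no UMI in the classical monocytes of either library, so that the non-classical level was at least 161-fold (WT) and 158-fold (KO) higher, counted against 3 UMIs over the classical cells of each library. Spn, the sialoglycoprotein CD43 long used to sort these cells, stood at 247 CPM in WT and 259 in KO against 23.4 and 29.4 in classical cells. Cx3cr1, the fractalkine receptor, stood at 379 and 489 CPM against 93.0 and 93.5. Gngt2, a G protein gamma subunit, stood at 890 and 1085 CPM against 63.8 and 95.4, and Slc12a2, a sodium, potassium and chloride cotransporter, at 324 and 318 against 2.87 and 1.28. S1pr5, a sphingosine-1-phosphate receptor that governs exit from bone marrow, stood at 190 and 193 CPM against 19.8 and 28.6. Cd274, which encodes PD-L1, stood at 235 and 247 CPM against 21.9 and 17.3. The 5 identity genes not called were Apoc2, Clec4a1, Clec4a3, Tnfrsf1b and Il17ra, with ratios between 0.46 and 1.11.

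**Figure D2:**
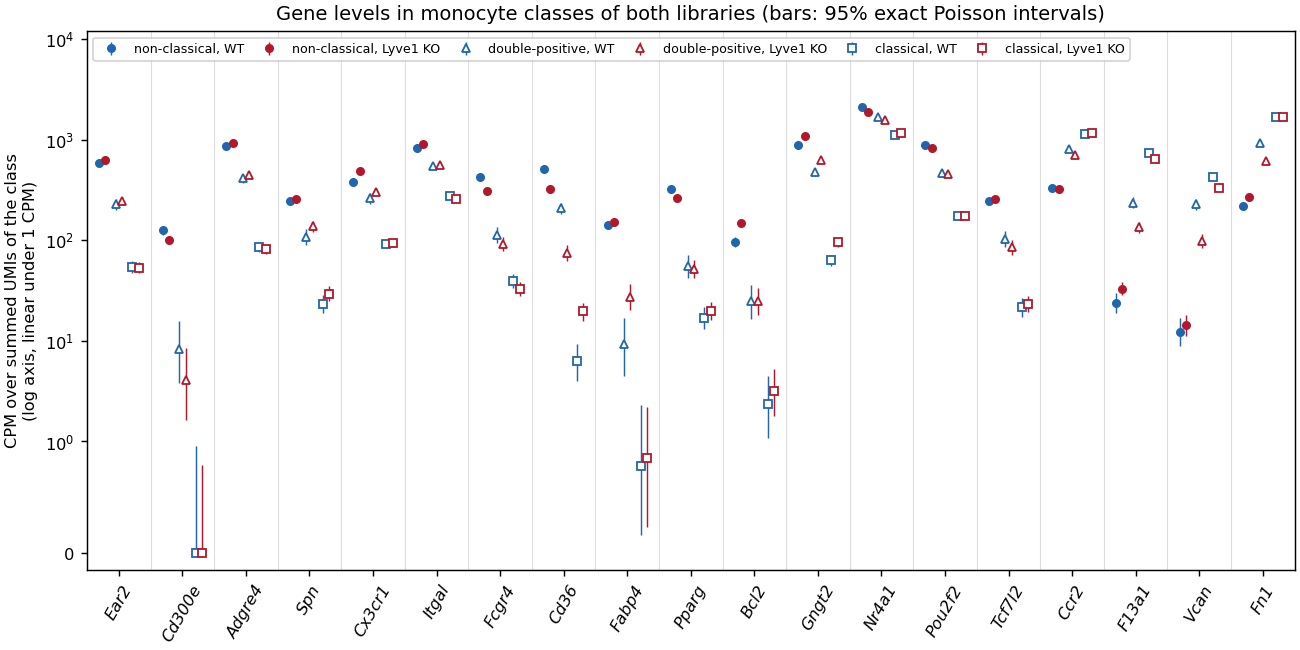
The level of 19 genes in CPM (log axis, linear under 1 CPM) is plotted for non-classical (filled circles), double-positive (open triangles) and classical (open squares) monocytes, WT in blue and Lyve1 KO in red, with 95% exact Poisson intervals. The first 15 genes have their highest level in non-classical cells and the last 4 in classical cells, and the double-positive cells lie between them.

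The 12 genes with the largest ratio over classical monocytes, in the library where it was smaller, were Cd36, Slc12a2, Cd300e, Pparg, Gngt2, Lair1, Setbp1, Lilra5, Bcl2, Ear2, Adgre4 and Dusp16. Lair1, an inhibitory receptor for collagen, stood at 328 CPM in WT and 284 in KO against 19.5 and 16.9 in classical cells. Lilra5, a receptor of the leukocyte immunoglobulin-like family, stood at 110 and 90.6 CPM against 1.82 and 2.56. Dusp16, a phosphatase of MAP kinases, stood at 562 and 542 CPM against 53.9 and 50.6, and Setbp1, a SET-binding protein, at 127 and 97.5 against 3.13 and 0.853.

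Lipid handling was represented by 22 tested genes, of which 5 were called higher and 2 lower. Cd36, a scavenger receptor for oxidized lipids and fatty acids, stood at 516 CPM (492–540) in WT and 326 (310–342) in KO non-classical cells, against 6.25 and 19.6 in classical cells. Pparg, the nuclear receptor that drives Cd36, stood at 323 and 262 CPM against 16.9 and 20.1, and Fabp4, a fatty acid-binding protein, at 141 and 153 against 0.781 and 0.853. The cholesterol exporter Abcg1 stood at 125 and 98.1 CPM against 33.9 and 28.4, and Nr1h3, the liver X receptor LXRα, at 13.9 and 24.3 against 1.30 and 2.35. The scavenger receptor Msr1 and the lysosomal cholesterol carrier Npc2 were the 2 called lower, Npc2 at 493 and 433 CPM against 1094 and 987.

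Among 14 tested genes of the BCL2 family, 5 were called higher and 1 lower. Bcl2, the founding inhibitor of apoptosis, stood at 96.8 CPM (86.6–108) in WT and 149 (138–160) in KO non-classical cells against 2.34 and 3.20 in classical cells. The near-identical paralogs Bcl2a1a, Bcl2a1b and Bcl2a1d, further inhibitors of apoptosis, were called higher as well, Bcl2a1d at 382 and 337 CPM against 39.9 and 54.4, with reads that may be divided between the copies. Pmaip1, which encodes the pro-apoptotic NOXA, was also called higher, at 560 and 584 CPM against 211 and 226. Bad, another pro-apoptotic member, was called lower, at 26.9 and 26.5 CPM against 69.0 and 63.2. Mcl1 stood at 819 and 758 CPM against 778 and 753.

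Of 23 transcription factors tested, 4 were called higher and 0 lower. Nr4a1, on which these cells depend, stood at 2107 CPM (2059–2157) in WT and 1907 (1869–1946) in KO against 1118 and 1158 in classical cells, a log2 ratio of 0.91 and 0.72 that did not pass the fold. Pou2f2, an octamer-binding factor, stood at 879 and 836 CPM against 174 and 174, Tcf7l2, a partner of β-catenin, at 248 and 257 against 21.6 and 23.5, and the NOTCH target Hes1 at 256 and 294 against 36.7 and 70.2. Bcl6, a repressor, stood at 243 and 275 CPM against 81.5 and 96.2. Cebpb stood at 1506 and 1472 CPM against 1273 and 1264, and Klf2 at 1439 and 1296 against 788 and 901.

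Adhesion and trafficking genes were divided, with 8 of 23 called higher and 6 lower. The integrin subunits Itgal (of LFA-1) and Itga4 (of VLA-4) stood at 827 and 909 CPM and at 1550 and 1659 CPM, against 275 and 258 and against 564 and 572 in classical cells. Pecam1, which encodes the adhesion molecule CD31, stood at 132 and 107 CPM against 9.12 and 8.32. On the lower side, Ccr2 stood at 335 CPM (315–355) in WT and 327 (311–343) in KO cells against 1144 and 1163. Of the other chemokine receptors, Ccr1 stood at 41.9 and 39.7 CPM against 255 and 234. Cd44, a hyaluronan receptor related to LYVE1, stood at 1237 CPM (1200–1275) and 1230 (1199–1262) against 991 and 986, with no call.

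Fc receptors held 2 calls among 10 tested genes, both higher. Fcgr4, the activating receptor for IgG2 that marks these cells, stood at 422 CPM in WT and 312 in KO against 39.6 and 33.1, and Fcgrt, the neonatal Fc receptor, at 240 and 195 against 80.5 and 76.8. Fcgr1 stood at 97.4 and 72.6 CPM against 193 and 167, and Fcgr3 at 391 and 331 against 493 and 462. Of the colony-stimulating factor receptors, Il3ra was called lower among 5 tested, at 9.74 and 10.5 CPM against 40.1 and 32.2.

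Genes of classical monocytes gave 16 calls lower and 0 higher among 22 tested, with a median log2 ratio of −1.57 in WT and −1.40 in KO. F13a1, the A subunit of coagulation factor XIII, stood at 23.9 CPM in WT and 33.2 in KO against 735 and 648 in classical cells. In the non-classical cells 1 cell held 45.7% (WT) and 64.0% (KO) of the F13a1 UMIs. The matrix proteoglycan Vcan stood at 12.4 and 14.4 CPM against 429 and 334, and fibronectin (Fn1) at 218 and 268 against 1689 and 1671. Thbs1, which encodes thrombospondin 1, stood at 845 and 380 CPM against 3436 and 1867. Lysozyme (Lyz2) stood at 9865 and 10474 CPM against 20874 and 20292, a log2 ratio of −1.08 and −0.95 that passed the fold in WT only, and Plac8 at 2585 and 2513 against 2617 and 2439.

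The 12 genes with the lowest ratio included F13a1, Vcan, Mmp8, Stfa3, Fn1, Prtn3, S100a8, Slfn4, Ccr1, Ms4a4c and Stfa1. Mmp8, Prtn3, S100a8 and the stefins Stfa1 and Stfa3 are also known from neutrophils and their precursors. Of 10 neutrophil markers, 8 were called lower, and their summed level was 1264 CPM in WT and 1816 in KO non-classical cells against 8071 and 11864 in classical cells. In the classical class 10 cells held 90.4% (WT) and 82.7% (KO) of the UMIs of this list. In the non-classical class 10 cells held 96.7% (WT) and 90.2% (KO), and the median was 0 UMIs per cell. Of the classical cells 44 of 158 and 51 of 180 had 20 or more of them, against 12 of 247 and 21 of 305 non-classical cells. Without monocytes that had 3 or more UMIs of a marker list of another cell type or over 3 times the median UMIs of the members, a choice made after the data were seen with the other kept cells left unchanged, 45 WT and 55 KO classical cells remained. S100a8, Prtn3 and Stfa1 then lost their call and 9 of the 12 kept it, as did 17 of the 19 identity genes, with Itgax and Stap1 lost. Of the 16 classical monocyte genes called lower, 12 kept their call, with Chil3, Mgst1, Hp and Cd177 lost. The part of neutrophil RNA in the remaining calls was not tested.

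**Figure D3:**
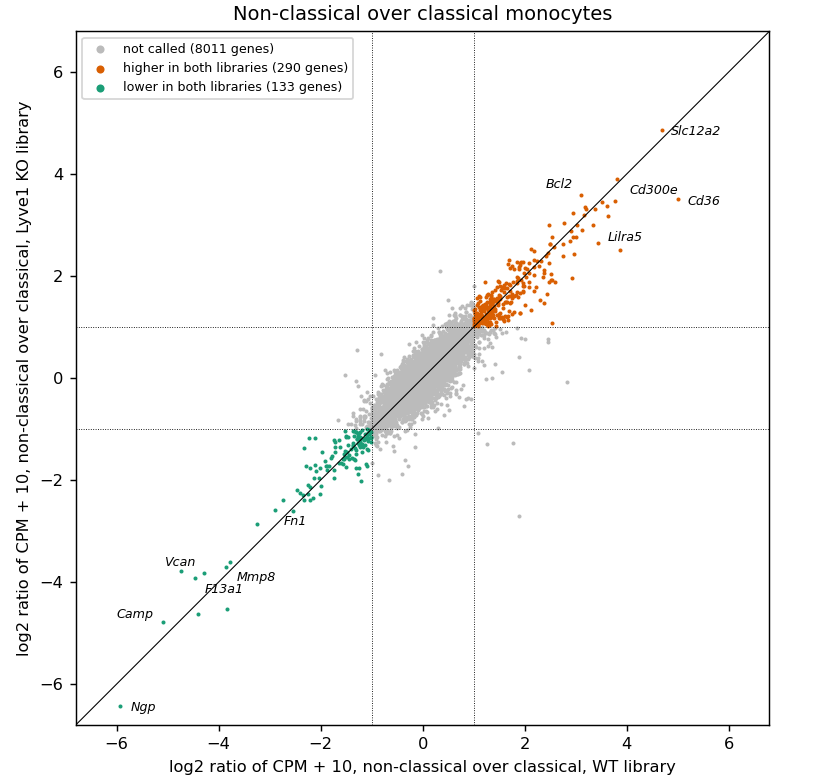
Each point is a gene, with the log2 ratio of CPM + 10 of non-classical over classical monocytes in the WT library across and in the Lyve1 KO library up, and dotted lines at −1 and 1. The 290 genes called higher and the 133 called lower lie along the diagonal, from Slc12a2 and Cd36 at the upper end to the neutrophil granule genes Camp and Ngp at the lower end.

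Antigen presentation genes gave 0 calls in either direction among 9 tested. H2-Aa stood at 238 CPM in WT and 153 in KO against 147 and 182 in classical cells, and had a UMI in 8.10% and 6.23% of the non-classical cells. Cytokines, chemokines and growth factors gave 1 call higher and 2 lower among 22 tested. Pdgfb, a growth factor for pericytes, was the gene called higher, at 33.6 and 56.7 CPM against 1.82 and 5.12, and the monocyte attractant Ccl2 and oncostatin M (Osm) were called lower. Il1b stood at 1439 and 1112 CPM against 1034 and 883, and Tnf at 202 and 165 against 42.7 and 92.8. Interferon response genes gave 0 calls higher and 3 lower (Isg15, Ifi47 and Usp18) among 23 tested, with a median log2 ratio of −0.60 in WT and −0.82 in KO. Isg15, a ubiquitin-like modifier, stood at 82.9 and 40.9 CPM against 215 and 179.

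Complement and coagulation genes gave 0 calls higher and 2 lower (F5 and F13a1) among 12 tested, and resident macrophage genes gave 0 in either direction among 7. Of the immediate early genes 2 of 18 were called higher, Egr1 and Dusp2, and their median ratio was 0.64 in WT and 0.33 in KO. Dissociation can raise this list, and its part in the values was not tested.

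The S phase and mitosis list summed to 718 CPM in WT and 714 in KO non-classical cells, against 1319 and 1245 in classical cells. Of 14 tested S phase and mitosis genes 3 were called lower (Mki67, Ccnb2 and Ube2c) and 0 higher, Mki67 at 2.95 CPM in WT and 3.24 in KO against 50.3 and 35.2 in classical cells. After each cell was thinned to 5000 UMIs, leaving out 30 WT and 25 KO members of lower depth, 0 of 217 WT and 0 of 280 KO non-classical monocytes had 10 or more UMIs of 25 cell cycle genes, with upper 95% limits of 1.69% and 1.31%. The same limit was reached by 3.82% and 2.23% of classical monocytes and by 15.9% and 9.49% of C1q-high macrophages.

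Of the lists of other cell types, the neutrophil list above had the highest sum in the non-classical cells, mostly through 10 cells of each library. In all, 55 of 247 WT and 71 of 305 KO members had 3 or more UMIs of a list of another blood cell or over 3 times the median UMIs. For the B cell list these were 25 WT and 37 KO members, and for the neutrophil list 21 and 28. Summed over 10 genes each, T cell markers stood at 4.43 CPM in WT and 4.65 in KO, natural killer cell markers at 5.31 and 3.24, platelet markers at 2.95 and 4.05, fibroblast markers at 0.295 and 0.607 and cardiomyocyte markers at 8.85 and 3.84. The B cell list stood at 58.7 and 65.8 CPM, mostly through Cd79b and Ighm, and the erythroid list at 53.4 and 53.8. Of the endothelial list, at 67.6 and 50.4 CPM, Flt1 made up 64.9 and 47.5 CPM, while Cdh5 stood at 0 and 0.607 and Tek at 0. Dendritic cell markers stood at 206 and 97.9 CPM. In WT 78.5 of these came from Ccr7, of whose 266 UMIs 1 cell held 265.

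Among themselves the non-classical monocytes spanned a range in which Ear2, Cd300e and Fcgr4 went up with the marker sum and Ccr2 went down. With the members divided by their summed Ace, Treml4 and Eno3 UMIs (4 to 7, 8 to 15, and 16 or more), Ear2 stood at 162, 379 and 730 CPM in WT and at 99.1, 250 and 744 in KO. Cd300e stood at 11.6, 105 and 157 CPM in WT and at 39.2, 46.2 and 117 in KO. Fcgr4 stood at 141, 403 and 490 CPM in WT and at 82.9, 213 and 353 in KO. Adgre4 followed this order in WT, at 515, 774 and 960 CPM, but stood at 767, 728 and 973 in KO. Ccr2 took the reverse order, at 627, 388 and 255 CPM in WT and at 749, 465 and 257 in KO. The low bin also held cells of lower depth, with medians of 7168, 10065 and 15055 UMIs in WT and 7901, 9724 and 18109 in KO, so the order follows a gene of the rule and depth together, which cannot be told apart.

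H2-Aa, a class II gene, was seen in few members, so its level in each bin rests on few cells. In the 3 bins, from low to high sum, it stood at 1339 CPM (1241–1442), 51.5 (34.8–73.5) and 35.8 (28.5–44.5) in WT. In KO it stood at 184 (146–229), 984 and 15.2 (11.6–19.6). All 694 H2-Aa UMIs of the WT bin of 4 to 7 lay in the 31 cells with a sum of 4 or 5. Among these 31 was the WT member of 74917 UMIs described below, with a sum of 5, which held nearly all Ccr7 UMIs. Its part in the H2-Aa values by bin was not tested. A UMI of H2-Aa was seen in 8.10% of all WT and 6.23% of all KO members. Over all members, 63.2% of the H2-Ab1 UMIs in WT and 54.3% in KO came from 1 cell.

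Double-positive monocytes, which held both the marker sum and Ly6c2, lay between the classes in identity and classical genes. Ear2 stood at 228 CPM in WT and 248 in KO, Adgre4 at 413 and 449, and Ccr2 at 804 and 711. Cd300e stood at 8.33 CPM (3.81–15.8) and 4.08 (1.64–8.41), far below its level in non-classical cells. F13a1 stood at 236 and 135 CPM. They made up 9.80% of 449 WT and 11.5% of 548 KO monocytes of the 3 classes, a difference of 1.70 points (−2.23 to 5.51), and were defined after the data were seen. With cells thinned to 5000 UMIs they were 7 of 292 (2.40%) in WT and 8 of 363 (2.20%) in KO, a difference of −0.193 points (−2.89 to 2.23). Transcripts of both sexes were found in 2 of 44 WT (4.55%) and 4 of 63 KO (6.35%) double-positive cells. This was 2.43% and 3.28% of non-classical cells (6 and 10 cells) and 0.633% and 1.11% of classical cells (1 and 2 cells). These counts are small. Double-positive cells were also deeper than non-classical ones, with medians of 22989 and 25930 UMIs against 13522 and 16237. The part of doublets of the other classes in the double-positive values was not tested.

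**Figure D4:**
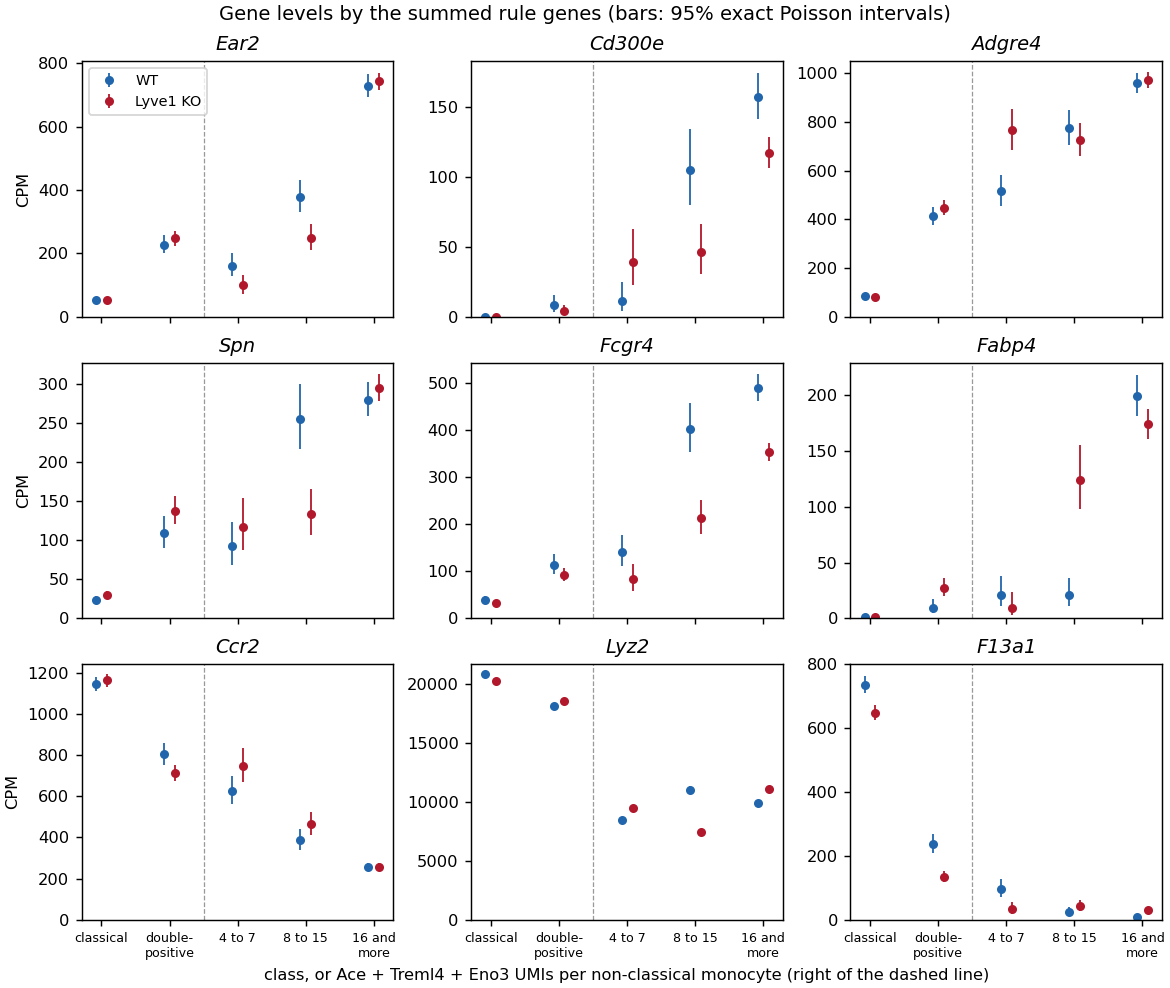
The level in CPM of 6 identity genes (upper 2 rows) and 3 classical genes (lower row) is plotted for classical monocytes, double-positive monocytes and 3 bins of non-classical monocytes by the sum of Ace, Treml4 and Eno3 UMIs, WT in blue and Lyve1 KO in red, with 95% exact Poisson intervals. Ccr2 goes from 1144 and 1163 CPM in classical cells to 255 and 257 in the top bin, and Ear2 from 54.4 and 53.6 to 730 and 744.

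The comparison of genotypes began with the targeted gene. Lyve1, a hyaluronan receptor of resident macrophages and lymphatic vessels (chromosome 7, 110850607 to 110863239, GRCm38), had 1 UMI in 247 WT and 37 UMIs in 305 KO non-classical monocytes, 0.295 CPM (0.00747–1.64) and 7.49 (5.27–10.3). In C1q-high macrophages of the same libraries it stood at 477 CPM in WT and 20.7 in KO, which checks the labels. Lymphocytes stood at 0.588 CPM in WT and 7.22 in KO, and the KO lymphocyte level lies within the interval of the KO non-classical monocytes. A UMI of Lyve1 was seen in 6.89% of KO non-classical monocytes and 10.1% of KO lymphocytes, and after thinning in 2.14% (0.790–4.61) and 3.58% (2.39–5.13). The unthinned shares of these 2 classes in WT were 0.405% and 0.885%. Of C1q-high macrophages 40.1% (WT) and 28.4% (KO) had a UMI, and after thinning 32.4% and 7.38%. The source of the Lyve1 UMIs in KO cells was not tested.

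Few genes differed by the fold between the libraries. Of 8717 genes tested, each with a sum of 50 or more UMIs over WT and KO members, 14 had a log2 ratio of KO over WT of at least 1 (0.161%) and 34 of at most −1 (0.39%), and 97.3% had a ratio under 0.5 in size. The median absolute ratio was 0.12, against 0.28 (WT) and 0.30 (KO) for non-classical over classical cells. Of the 14 and 34 genes, 10 and 21 had a UMI in fewer than 25% of the members of both libraries. Of 24 identity genes 0 were called in either direction (median 0.07), and the same held for Fc receptors, BCL2 genes, immediate early genes, cell cycle genes, complement genes and colony-stimulating factor receptors. Transcription factors gave 1 call lower (Nr4a3), adhesion genes 1 lower (Ccr7), class II genes 1 lower (H2-Ab1), cytokines 1 lower (Vegfa), interferon genes 1 lower (Gbp2), classical genes 1 lower (Thbs1), lipid genes 2 lower (Apoe and Spp1) and resident macrophage genes 1 higher (Mrc1).

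**Figure D5:**
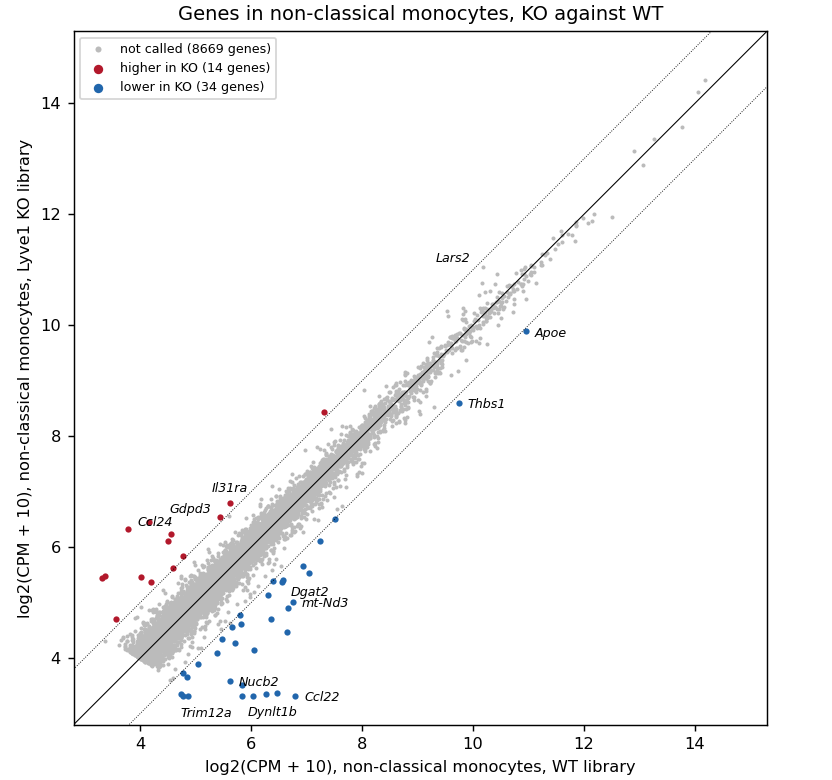
Each point is a gene in non-classical monocytes, with log2(CPM + 10) in the WT library across and in the Lyve1 KO library up, and dotted lines at a log2 ratio of −1 and 1. The 14 genes called higher (red) and the 34 called lower (blue) lie mostly at the low end, with Apoe and Thbs1 the furthest to the right, and the other genes lie along the diagonal.

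The lowest ratios among genes with a UMI in at least 25% of the WT members were in part shared with other classes. Dynlt1b, a dynein light chain on chromosome 17, stood at 67.3 CPM in WT and 0.202 in KO non-classical cells, and at 110 and 0.213 in classical monocytes. Trim30d and Trim12a, both of the tripartite motif family and both on chromosome 7 like Lyve1, stood at 55.8 and 46.9 CPM in WT members, while KO members held 0 UMIs of either. In classical monocytes Trim30d stood at 74.2 and 2.99 CPM and Trim12a at 41.7 and 0. Nucb2, a calcium-binding protein also on chromosome 7, stood at 39.2 and 2.02 CPM in non-classical, 45.3 and 11.9 in classical and 29.8 and 30.1 in C1q-high cells. The mitochondrial gene mt-Nd3 stood at 98.0 and 22.5 CPM in non-classical and 136 and 44.2 in C1q-high cells. Trim12a and Trim30d belong to families of similar copies, so their counts are uncertain.

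Other genes past the fold were closer to it. Apoe, the main apolipoprotein of macrophages, stood at 1971 CPM (1924–2018) in WT and 940 (913–967) in KO non-classical cells, a log2 ratio of −1.06, and at 1205 and 877 in classical cells. In C1q-high macrophages it stood at 13295 and 11647 CPM, and lymphocytes had a UMI in 29.7% (WT) and 18.8% (KO) of cells, so free Apoe RNA moved the same way and its part was not tested. Thbs1 stood at 845 (815–877) and 380 CPM (363–397), a ratio of −1.13, and at 3436 and 1867 in classical cells (−0.88). Dgat2, which makes triglycerides, stood at 84.1 CPM (74.6–94.5) and 31.6 (26.8–36.9), against 54.7 and 41.0 in classical cells. Nr4a3, a relative of Nr4a1, stood at 85.0 (75.5–95.4) and 32.4 (27.6–37.8), with 29.9% of the WT UMIs in 1 cell, and Ankrd37 at 68.8 and 25.1 with 33.5% in 1 cell. Without the top cell of each gene, Nr4a3 and Ankrd37 lost their call and Dgat2 kept it, and in female cells alone Dgat2 and Nr4a3 lost theirs.

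On the higher side, Il31ra, a receptor subunit for interleukin 31, stood at 39.2 CPM (32.9–46.5) in WT and 101 (92.5–110) in KO, and at 39.4 and 113 in C1q-high macrophages. Gdpd3, a lysophospholipase, stood at 33.3 and 83.8 CPM, with 7.18 and 30.8 in C1q-high cells. Slco3a1, an organic anion transporter, stood at 17.4 and 47.5, and the predicted gene Gm44751 at 8.26 and 31.4. In male cells alone, 1 of these 4 genes, Gdpd3, passed the fold. The next in order did not reach the fold: AC149090.1 had a ratio of 0.97, Lars2, the mitochondrial leucyl-tRNA synthetase, of 0.87 (1148 and 2107 CPM, with 16.7% and 20.3% of the UMIs in 1 cell), Hist1h1e of 0.76 and Nav1 of 0.74. Bcl2 had a ratio of 0.57 (0.40–0.75) and Cd36 of −0.64 (−0.74 to −0.55), both under the fold and beyond counting error.

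Several calls rested wholly or in large part on 1 cell. A WT member with 74917 UMIs, against a median of 13522, held 343 of 344 Ccl22 UMIs, 265 of 266 Ccr7 UMIs and all 59 Cxcl9 UMIs, genes known from mature dendritic cells and activated macrophages. A KO member with 61259 UMIs and another with 52041 held 164 of 166 Retnla and 161 of 172 Mmp12 UMIs. Of the list members called, Mrc1 had 62.1% of its KO UMIs in 1 cell, with a UMI in 11 WT and 6 KO members. Spp1 had 46.6% of its WT UMIs in 1 of 9 cells, Vegfa 41.1% in 1 of 13 and Gbp2 31.4% in 1 of 39. Without the 3 members of over 3 times the median UMIs, a choice made after the data were seen, 13 genes were higher and 23 lower in KO.

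The genes that the study follows did not pass the fold in non-classical monocytes. Ccr2 had a log2 ratio of KO over WT of −0.03 (−0.14 to 0.07) and a UMI in 52.2% of WT and 55.1% of KO members, and Cd44 had a ratio of −0.01 (−0.06 to 0.05) and a UMI in 98.4% and 99.3%. In lymphocytes Ccr2 had a UMI in 12.6% and 12.9% of cells. In C1q-high macrophages Ccr2 stood at 100 CPM in WT and 183 in KO, so non-classical monocytes lay between those macrophages and classical monocytes in both libraries.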

How the data were processed

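Live CD45+ cells of 5 pooled WT and 5 pooled Lyve1 KO hearts were measured by scRNA-seq in 1 library each. The authors deposited unnormalized UMI counts per gene and cell for 32285 genes, made with Cell Ranger 8.0.1 per the submitters' processing notes on the mm10/GRCm38 reference, and the paper names another Cell Ranger version, so the version is uncertain. The tables held 67968938 UMIs (WT) and 61555917 UMIs (KO), and the members 3388891 and 4942278, with medians of 13522 and 16237 per cell. The libraries shared 9 barcodes, 0 among WT and 1 among KO members. The study assigned cells to hearts by variants and removed doublets there. This was not repeated on the counts, no doublet caller was run, and cells with signs of doublets were left out as an alternative.

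Members, comparison classes and the 26 gene lists were chosen with earlier results of these data known. Counts were summed per class and library and scaled to CPM, and ratios are log2 after adding 10 CPM. Intervals are exact Poisson for CPM, Clopper-Pearson for shares and Newcombe for differences. No p-value was computed, because cells of 1 library are not replicates. The named genes are the rule genes and 6 markers, up to 5 members of each list by level and those called, the 12 highest and 12 lowest over classical monocytes and the 8 highest and 8 lowest of KO over WT, each with a UMI in at least 25% of the cells of the higher side, and Lyve1, Ccr2 and Cd44. Of a list, further members are named for their known role, and genes whose UMIs lay in 1 cell were named after their values were seen. A gene among the 12 lowest is not reported here. The call rule was tested on simulated counts. Positions are from GENCODE vM21 (GRCm38), which matched 32235 genes, and promoters from RefSeq GRCm38.p6. Python 3.11.15, numpy 2.4.6, scipy 1.17.1, pandas 2.3.3 and matplotlib 3.10.9 were used.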

Additional observations from a re-analysis of the deposited data

How the results depend on the processing

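No paired analysis was possible because each genotype had 1 library and the labels give no replicate numbers. Of 22 alternatives, 3 of them added after seeing the data, 15 redefine the cells. The share of kept cells stayed higher in KO under all 15. The difference of 3.71 percentage points became 15.9 where cells with signs of doublets were left out of every class, which also removes most neutrophils and lymphocytes from the denominator, and 2.77 where only such monocytes were left out. It was 5.52 in female cells, where the difference among monocytes was 9.69.

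Counts of genes past the fold depended on the settings. The 14 genes higher and 34 lower in KO became 44 and 63 with 1 CPM added, 2 and 9 with 50 CPM added, 9 and 21 with at least 200 UMIs, 7 and 19 without the top cell of each gene, and 22 and 20 with at least 2 of the 3 marker genes. Genes higher in KO numbered 8 in cells thinned to 1 depth, 28 in female and 25 in male cells. They numbered 133 under looser cell limits (500 genes or more, up to 30% mitochondrial UMIs), and 14 without 1 KO barcode of 189211 UMIs and 12.3% mitochondrial UMIs that these limits add. Over classical monocytes, the 290 genes higher and 133 lower became 436 and 253 with 1 CPM added and 124 and 52 with 50 CPM added. Without monocytes with signs of doublets, 225 of 289 genes called higher and 72 of 142 called lower were among those of the first count. Itgax in KO, at 1.28, became −0.11 without cells with signs of doublets, in both forms of that alternative. No other named gene turned its direction. Trim30d, Trim12a and Nucb2 lost their call at 1 depth and with at least 200 UMIs, where they no longer had enough UMIs to be tested.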
